A study of Arabidopsis thaliana with 4 samples.

Results

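Class III peroxidases were followed through a root RNA-seq experiment in Arabidopsis thaliana that crossed aluminium (Al) exposure with loss of the gene LUH. The genes were taken from the descriptions in the deposited tables: a locus was kept where the text of its best protein match contained the word peroxidase, and dropped where it named an ascorbate, glutathione, thioredoxin or hydroperoxide enzyme. A further locus was set aside beforehand and is not reported here. This gave 71 loci of the 21531 listed in any library. Of these, 65 are numbered class III peroxidases and 6 are other proteins, of which 5 are described as vanadium-dependent haloperoxidase-related and 1 is OCP3. Of 72 numbered class III genes looked for, 6 were not listed in any library, and 1 more, AT5G19880, carried another description and was not taken.

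Seedlings of the wild type Col and of the mutant line luh-4, both of the Columbia ecotype, were grown for 6 days in nutrient solution of pH 5.5 and then moved to solution of pH 4.2 with 0 or 25 µM AlCl3. Roots of about 500 seedlings were pooled per treatment, and polyadenylated RNA of each pool was sequenced as 1 library, so each of the 4 groups is 1 library. These libraries are called Col control and Col Al for the wild type and luh-4 control and luh-4 Al for the mutant. The titles call the controls 0 h and the Al samples 4 h, whereas the protocol has both arms sampled after 4 h, so time in the acid solution and Al cannot be told apart if the titles hold. luh-4 is 1 mutant line, and the nature of its allele is not given in the labels.

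The libraries held 13.45 to 13.82 M reads on 20077 to 20284 loci. LUH, which encodes a transcriptional co-repressor, had 75 and 63 reads in the Col libraries, without and with Al, and 0 in each library labelled luh-4. The RPKM of 7 endodermis markers summed to between 673 and 812 and that of 9 root hair markers to between 311 and 889.8, with all 16 genes read in every library. Markers of another kind stood high in luh-4 control. The RPKM of 15 green shoot genes summed to 432 there against 103 to 143 in the other libraries, and that of 10 listed jasmonate and wounding genes to 133 against 60.5 to 92.5. Their part in any peroxidase difference that uses luh-4 control was not tested.

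Class III peroxidases are secreted haem enzymes of plants. They use hydrogen peroxide to oxidise phenolic compounds, which polymerises lignin and cross-links wall proteins such as extensins, and in another reaction they can make reactive oxygen species that loosen walls. The family is large, and its members in the root are known from root hairs, from the lignin of the endodermis and the xylem, and from defence at the cell surface. Aluminium ions at low pH inhibit root elongation and bind to the wall, the compartment in which these enzymes work.

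The haem pocket of the family holds a distal histidine, which takes part in splitting hydrogen peroxide. The stretch around it was read from the RefSeq coding sequences (assembly TAIR10.1). The descriptions come from protein matches, so the stretch describes the genes and is not an independent check of the label. An arginine followed by 2 residues and then phenylalanine, histidine, aspartate and cysteine, with some positions left loose, was encoded in 61 of the 65 class III genes and in 0 of the 6 other proteins. Over the 20634 listed loci with a RefSeq transcript of the deposited coding length it was found in 60, of which 58 are numbered class III genes. That search covered 66 of the 71 members and also loci outside them, so the 60 and the 61 count unlike sets. The loose form was chosen after a stricter one had matched 22 class III genes. PRX24, AT2G43480, AT5G24070 and PRX62 lacked it. The stretches below, 27 bases each with the histidine codon in capitals, belong to the genes on which the results turn.
PRX32: cgtcttcacttcCACgactgtttcgtc
PRX42: cgtaacatcttcCATgactgcgccgtt
PRX49: agacttcatttcCACgactgtttcgtt
PRX33: cgtcttcacttcCATgactgctttgtt
PRX05: cgcatgcacttcCATgactgttttgtt
PRX69: cgaatgcatttcCACgattgctttgtc
PRX71: agaatgcatttcCACgactgttttgtc
PRX27: agaatgttcttcCACgactgcttcgtt
PRX60: cgcctttattttCACgattgttttagc
PRX73: cgcctcttcttcCACgattgcttcgtc
PRX07: cgccttatcttcCACgattgtggcgtc

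Both codons for histidine, CAC and CAT, occur among the genes that rose with Al and among the most abundant ones.

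Levels are given as RPKM, the reads of a locus per kilobase of coding length and scaled to the total reads of the library, which allows genes of different length to be compared. They ranged from no reads to 5119 RPKM. Averaged over the 4 libraries, 27 of the 71 loci lay at 100 RPKM or more, 21 between 10 and 100, 13 between 1 and 10, and 10 below 1. Reads were found in all libraries for 67 loci. Only 64 reached 1 RPKM in some library and were counted as measured. The 7 that never did were PRX06, PRX14, PRX18, PRX36, PRX41, PRX46 and AT3G03670. PRX36, which is known for loosening the seed coat wall when mucilage is released, had 1 read in each control library and 0 in each Al library. A library with 0 reads allows up to 3 reads, about 0.22 RPKM for a coding length of 1 kb.

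PRX32 and PRX42 dominated the family. PRX32 had 4566 RPKM in Col control, 5119 in Col Al, 4026 in luh-4 control and 4359 in luh-4 Al. PRX42 had 3605, 3596, 3609.9 and 3723 RPKM in the same order. In Col control they ranked 3 and 4 among all loci listed, and together they made up 41.8% of the class III RPKM there. The 10 most abundant members made up 76.1%. The family's share of all reads, the 6 other proteins included, was 1.98% in Col control (95% Wilson interval 1.97 to 1.99), 1.83% in Col Al (1.83 to 1.84), 1.97% in luh-4 control (1.96 to 1.97) and 1.85% in luh-4 Al (1.84 to 1.86). These intervals, like all intervals below, cover counting error only. Both Al libraries thus held a smaller share than both controls.

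**Figure D1:**
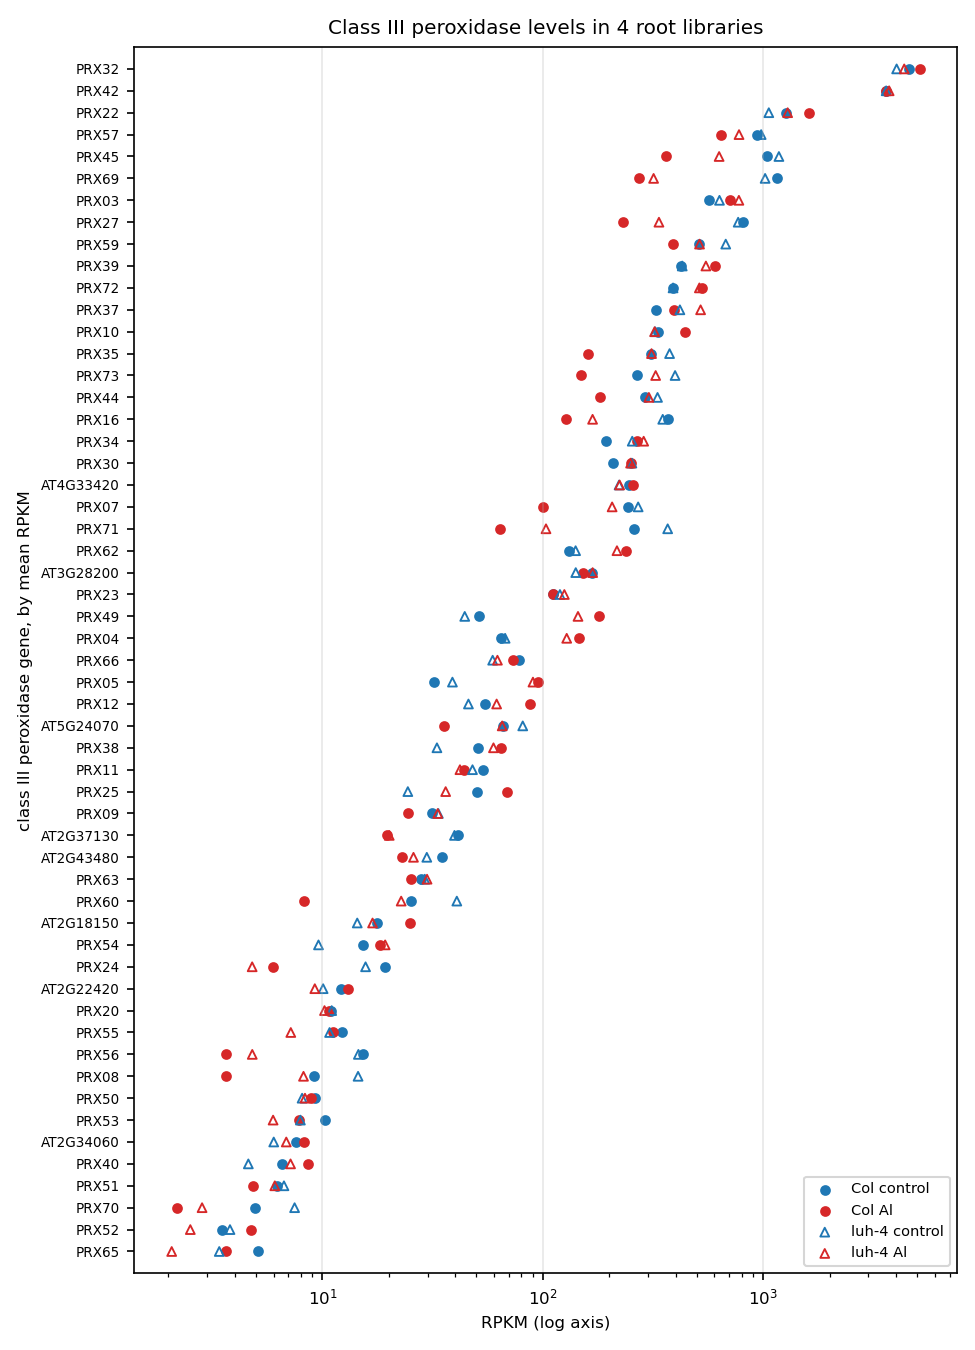
RPKM (log axis) of the 55 class III peroxidases with a mean of at least 1 RPKM, ordered by that mean from the top, with a symbol for each of the 4 libraries (circles for Col, triangles for luh-4, blue for control, red for Al). PRX32 and PRX42 stand at the top with 3596 RPKM or more in every library, and the red symbols of PRX69, PRX71 and PRX27 lie far to the left of the blue ones.

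The first question of the design is how wild-type roots answered Al. With 1 library per group no test between replicates exists, so a difference was counted as a change only where the log2 ratio of RPKM + 0.1 was at least 1 in size and its 95% counting interval left out 0. Under this size rule 4 peroxidases rose and 12 fell in Col, of 64 measured. Over all 17068 measured loci 2.6% rose and 2.91% fell, against 6.25% and 18.8% of the peroxidases. The 4 that rose include PRX33, which was measured only through its Al library, and 3 rose without it. The median log2 ratio of the peroxidases was -0.01, beside 0.02 for all measured loci, so the median member stayed at its control level while some members moved far. All 16 members that changed are class III genes.

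**Figure D2:**
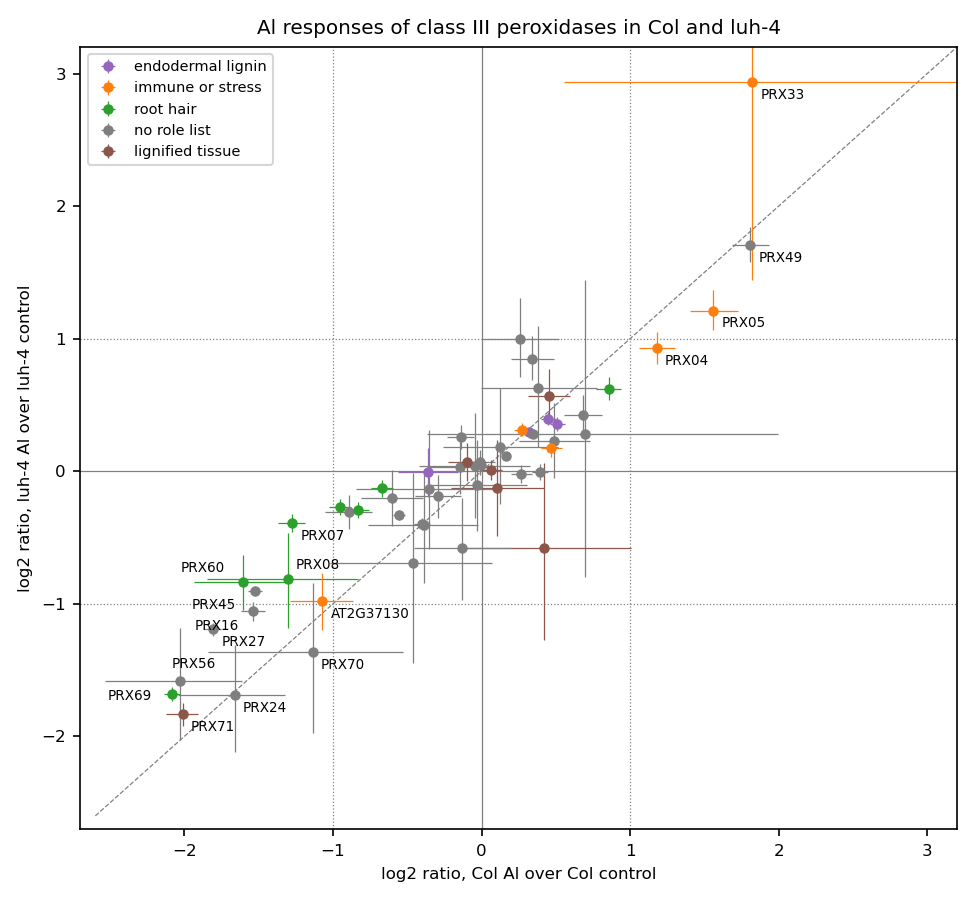
Log2 ratio of Al over control in Col (horizontal axis) and in luh-4 (vertical axis) for the measured class III peroxidases, coloured by role list, with bars for the 95% counting interval (those of PRX33 run past the frame), dotted lines at a log2 ratio of 1 in size and a dashed line where both ratios are equal. PRX69, PRX71, PRX56 and PRX27 lie at the lower left, PRX49 and PRX05 at the upper right, and PRX07 and PRX60 lie above the dashed line.

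Of the genes that rose, PRX04, PRX05 and PRX33 are on the immune and stress list, 6 genes known from defence or from responses to stress. In it 3 of 6 measured members rose and 1 fell in Col, with a median log2 ratio of 0.82. The count and the median include PRX33, which was measured only because it was higher with Al. PRX05 and its neighbour PRX04 are induced by microbial patterns. PRX05 had 32.1 RPKM in Col control, 94.9 in Col Al, 38.9 in luh-4 control and 90.2 in luh-4 Al. Both Al libraries lay above both controls, and in Col the gene rose 2.95-fold (log2 1.56, interval 1.4 to 1.73). PRX04 had 64.4, 146, 67.4 and 128 RPKM in the same order. It rose 2.26-fold in Col (log2 1.18, interval 1.06 to 1.3).

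PRX33 and PRX34 encode the peroxidases known for the oxidative burst at the surface of cells attacked by microbes. PRX33 went from 4 reads to 18 with Al in Col and from 1 to 17 in luh-4, all at 1.22 RPKM or less. Its log2 ratio in Col was 1.82, with an interval from 0.56 to 4.18, which leaves the size of the rise poorly known. It reached 1 RPKM only in the Al libraries, so it was counted as measured only because it was higher there, and its rise supports no count. Of its 50-base words 9.74% occur in PRX34 as well, so with so few reads beside the 2813 to 4095 of PRX34 its own level is uncertain. PRX34 was far more abundant, at 193 RPKM in Col control, 268 in Col Al, 254 in luh-4 control and 287 in luh-4 Al, and its log2 ratio of 0.47 in Col stayed under the size rule. PRX37 also stayed under it, with a log2 ratio of 0.27 in Col. AT2G37130, the remaining gene of the list, went down: it had 41.3 RPKM in Col control, 19.6 in Col Al, 39.7 in luh-4 control and 20.1 in luh-4 Al, and fell 2.1-fold in Col (log2 -1.07). Reads covered only 29.98% of its coding length, so its value rests on part of the gene.

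PRX49, on none of the role lists, rose as far as any well-counted member. It had 51.4 RPKM in Col control, 180.2 in Col Al, 44.2 in luh-4 control and 144 in luh-4 Al. The Al libraries lay well above the controls in both genotypes, with a 3.5-fold rise in Col (log2 1.81, interval 1.69 to 1.93).

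Among the genes that fell, 4 belong to the root hair list. Root hair peroxidases act in the wall of the growing hair, where PRX44 and PRX73 are known to work on extensins and PRX62 and PRX69 to promote hair growth in the cold. Of 9 on the list 8 were listed in the files, and AT1G05240 was not. In Col 4 of the 8 fell and 0 rose, with a median log2 ratio of -1.12. PRX69 had 1156 RPKM in Col control, 273 in Col Al, 1019 in luh-4 control and 318 in luh-4 Al. It was the fourth most abundant peroxidase in Col control and fell 4.24-fold there (log2 -2.08, interval -2.13 to -2.03). PRX60 had 25.1, 8.21, 40.7 and 22.8 RPKM in the same order, a 3.04-fold fall in Col (log2 -1.60, interval -1.93 to -1.3). PRX07 had 243, 100.3, 271 and 206 RPKM, and Col Al was the lowest library for all of these genes. The ratio of PRX07 in Col was -1.28 on the log2 scale (interval -1.37 to -1.19), and that of PRX08, at 117, 47, 186 and 103 reads, was -1.31 (interval -1.85 to -0.83).

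The other root hair genes stayed under the size rule in Col: the log2 ratio was -0.95 for PRX35, -0.84 for PRX73 and -0.67 for PRX44. PRX62 stood on the other side, with 131 RPKM in Col control, 238 in Col Al, 141 in luh-4 control and 217 in luh-4 Al, and a log2 ratio of 0.85. Summed over the 8 genes, root hair peroxidases made up 2431 RPKM in Col control and 1114 in Col Al. Root hair markers, chosen like the role lists with earlier results of these data known, moved beside them. The RPKM of 9 such genes, none of them a peroxidase and none at 0 in any library, summed to 715 in Col control and 311 in Col Al, and 4 of the 9 fell, with a median log2 ratio of -0.95. In whole roots fewer root hair cells and less RNA per cell cannot be told apart, and the part of hair cell number in the peroxidase values was not tested.

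The remaining 8 genes that fell in Col include PRX71, a gene known to stiffen the wall after damage and placed on the lignified tissue list. It had 259.6 RPKM in Col control, 64.2 in Col Al, 368 in luh-4 control and 103 in luh-4 Al. Both Al libraries lay below both controls, and in Col it fell 4.04-fold (log2 -2.01, interval -2.12 to -1.91). Its neighbour PRX70 had 67, 30, 102 and 38 reads and a log2 ratio of -1.14 in Col (interval -1.84 to -0.53). PRX27 had 812, 232, 769 and 336 RPKM in the order used above and fell 3.5-fold in Col (log2 -1.81). PRX45 had 1043 RPKM in Col control, 362 in Col Al, 1177 in luh-4 control and 631 in luh-4 Al. PRX27, PRX45 and PRX69 are among the 7 most abundant peroxidases of Col control, so the genes that fell were not confined to low levels.

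PRX16, PRX24 and PRX56 complete the group. PRX16 had 369.8 RPKM in Col control, 127 in Col Al, 349.9 in luh-4 control and 168 in luh-4 Al, and its log2 ratio in Col was -1.54. PRX24 had 19.1, 5.98, 15.7 and 4.80 RPKM (log2 -1.66 in Col). PRX56 had 15.3, 3.65, 14.6 and 4.81 RPKM (log2 -2.03 in Col). For all 3 the Al libraries lay below the controls in both genotypes, and the controls of the 2 genotypes were close to each other.

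On the lists tied to lignin PRX71 alone passed the size rule in Col, where 2.6% of all measured loci rose and 2.91% fell. In the endodermal list, PRX03, PRX09, PRX39 and PRX72, which are known from the lignin of the Casparian strip, 0 of 4 genes passed the size rule. Their log2 ratios in Col ran from -0.36 for PRX09 to 0.51 for PRX39, with a median of 0.38. The RPKM of the 4 summed to 1408 in Col control, 1861 in Col Al, 1485 in luh-4 control and 1870.4 in luh-4 Al, so both Al libraries were above both controls by less than the size rule asks. The 7 endodermis markers had a median log2 ratio of -0.08 in Col. On the lignified tissue list 6 of 7 genes were listed. PRX71 fell, while AT2G22420, PRX25, AT4G33420, PRX52 and PRX66, known from lignin of vessels or fibres, had ratios between -0.10 and 0.45. The 5 xylem markers had a median of 0.03.

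UPB1 is a transcription factor known to repress peroxidases where root cells pass from division to elongation. Of its targets on the list, PRX39, PRX40 and PRX57, 0 of 3 passed the size rule in Col. PRX57 had 941 RPKM in Col control, 640.0 in Col Al, 978 in luh-4 control and 776 in luh-4 Al (log2 -0.56 in Col). PRX40 had 6.57, 8.57, 4.61 and 7.17 RPKM (log2 0.38 in Col). UPB1 itself had 31.2, 27.9, 33.0 and 23.3 RPKM and a log2 ratio of -0.16 in Col.

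**Figure D3:**
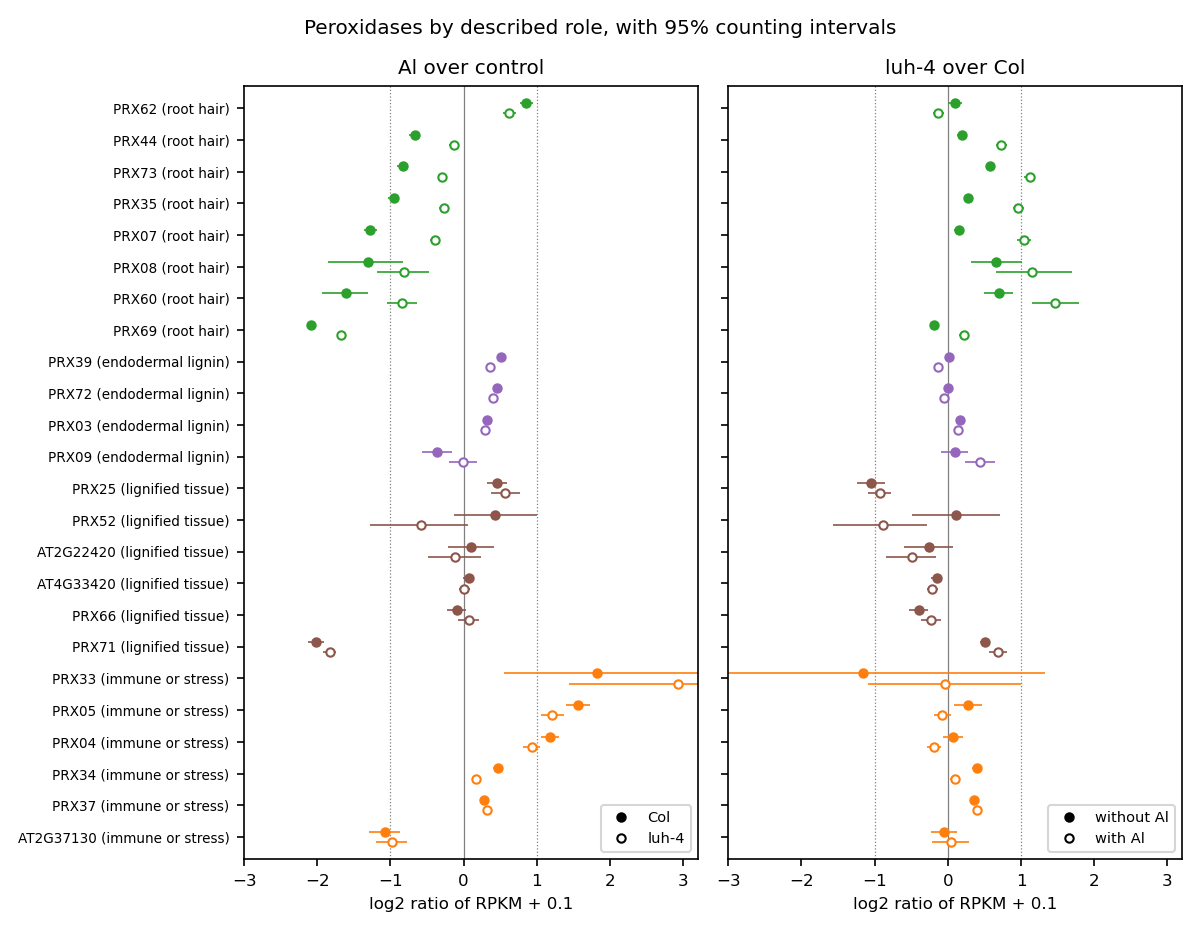
Log2 ratios of RPKM + 0.1 for the peroxidases of the root hair, endodermal, lignified tissue and immune lists, with 95% counting intervals, for Al over control (left, filled for Col and open for luh-4) and for luh-4 over Col (right, filled without Al and open with Al); intervals of PRX33 run past the frame. Root hair genes spread from -2.08 to 0.85 with Al in Col, and the endodermal genes stay within 0.51 of 0.

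In luh-4, 3 peroxidases rose with Al and 7 fell, of 63 measured. Among the 17117 measured loci 2.02% rose and 3.1% fell, against 4.76% and 11.1% of the peroxidases. The 2 Al comparisons share no library. Leaving out PRX33, which entered only through its Al libraries, both genes that rose in luh-4, PRX05 and PRX49, also rose in Col, and all 7 that fell, PRX16, PRX24, PRX27, PRX56, PRX69, PRX70 and PRX71, also fell in Col. In Col 3 rose and 12 fell with PRX33 left out. Of 16750 loci measured in both comparisons, 1.19% rose in both genotypes and 1.07% fell in both.

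The size of the shared changes was close for some genes. PRX24 fell by 1.66 on the log2 scale in Col and by 1.69 in luh-4. PRX49 rose by 1.81 in Col and by 1.70 in luh-4, and PRX71 fell by 2.01 and by 1.83. PRX33 rose from 1 to 17 reads in luh-4, a log2 ratio of 2.93 with an interval from 1.44 to 9.50.

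The 6 members past the size rule in Col and not in luh-4 were PRX04, which had a log2 ratio of 0.93 in luh-4, AT2G37130 with -0.98, PRX45 with -0.90, PRX60 with -0.84, PRX08 with -0.81 and PRX07 with -0.39. The first 5 missed the rule by little. A gene past the rule in 1 genotype only is not shown to differ between them, so the difference of the 2 responses, luh-4 minus Col, was computed with its own interval. By this measure 0 peroxidases responded at least 2-fold higher in luh-4 and 1 responded lower, of 64 measured, beside 1.35% and 2.26% of 17435 loci. That gene was PRX52, at 47, 64, 51 and 33 reads, with a difference of -1.0 on the log2 scale (interval -1.85 to -0.19). It sits on the threshold and leaves it under 5 of the alternatives that were run, 3 of them scalings.

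Below the size rule, the root hair list had a median difference of 0.54, beside -0.04 for all measured loci, and the interval lay above 0 for 6 of 8 genes and below 0 for PRX62. Among the 64 measured peroxidases it lay above 0 for 18 and below 0 for 12, and among all 17435 loci for 9.95% and 13.9%. A counting interval narrows as reads increase, and 27 of the 71 members averaged 100 RPKM or more. These counts, those of the root hair list included, therefore depend on level and show no trait of the family. The difference was 0.88 for PRX07 (interval 0.77 to 1.0), 0.77 for PRX60 (0.41 to 1.14), 0.68 for PRX35 (0.59 to 0.78) and 0.54 for both PRX44 and PRX73. Outside the list it was 0.63 for PRX45 (0.57 to 0.69) and 0.61 for PRX27 (0.54 to 0.69). The response to Al of these genes was therefore smaller in luh-4 than in Col by more than counting error. Each estimate was under 2-fold, though the interval of PRX60 reached past it. The 9 root hair markers had a median difference of 0.71 and all 9 intervals lay above 0.

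The genotypes were next compared without Al. Of 62 measured, 0 were higher in luh-4 and 1 was lower, beside 1.55% and 0.855% of 17070 measured loci. These counts are near the shares over all loci and show no trait of the family. The gene that was lower was PRX25, known from stem lignin. It had 50.5 RPKM in Col control, 69.1 in Col Al, 24.4 in luh-4 control and 36.2 in luh-4 Al. Both luh-4 libraries were below both Col libraries. Without Al the gene was 2.06-fold lower in luh-4 (log2 -1.04, interval -1.24 to -0.86), and with Al the log2 ratio was -0.93, just short of the size rule. Its response to Al was 0.45 in Col and 0.57 in luh-4. The median over the peroxidases was 0.00 without Al, beside 0.02 for all measured loci.

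With Al, 4 peroxidases were higher in luh-4 than in Col and 0 were lower, of 64 measured. Over 17011 measured loci 1.22% were higher and 0.946% lower. The 4 were PRX07, PRX08, PRX60 and PRX73, all from the root hair list. PRX60 was 2.75-fold higher (log2 1.46, interval 1.16 to 1.80), PRX08 2.22-fold (log2 1.15, interval 0.66 to 1.70), PRX73 2.17-fold (log2 1.12, interval 1.04 to 1.2) and PRX07 2.06-fold (log2 1.04, interval 0.95 to 1.13). PRX73 had 267 RPKM in Col control, 149.5 in Col Al, 398 in luh-4 control and 325 in luh-4 Al, so both luh-4 libraries lay above both Col libraries. For PRX60 the luh-4 Al library, at 22.8 RPKM, lay just under Col control at 25.1 and well above Col Al at 8.21.

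PRX35, at 309 RPKM in Col control, 159.6 in Col Al, 376 in luh-4 control and 311 in luh-4 Al, had a log2 ratio of 0.96 between the genotypes with Al, just under the size rule. That of PRX44 was 0.73. PRX69 differed by 0.22 and PRX62 by -0.13, so the list was not uniform. Its median was 1.0 with Al and 0.24 without Al, beside -0.02 and 0.02 for all measured loci. The summed level of the 8 genes was 1711 RPKM in luh-4 Al against 1114 in Col Al, and 2591 against 2431 in the controls.

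The root hair markers lay in the same order. They summed to 715 RPKM in Col control, 311 in Col Al, 889.8 in luh-4 control and 695 in luh-4 Al. Of the 9, 6 were higher in luh-4 with Al and 0 without Al, with medians of 1.03 and 0.26. RSL4, a transcription factor that drives root hair growth, had 5.45 RPKM in Col control, 2.24 in Col Al, 6.28 in luh-4 control and 6.99 in luh-4 Al. It fell in Col (log2 -1.25) and was higher in luh-4 with Al (log2 1.60), and the difference between its Al responses, 1.4, passed the size rule. RHD6 and RSL2, related factors, passed it in no comparison. The part of hair cell number or hair growth in the genotype differences of the peroxidases was not tested.

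**Figure D4:**
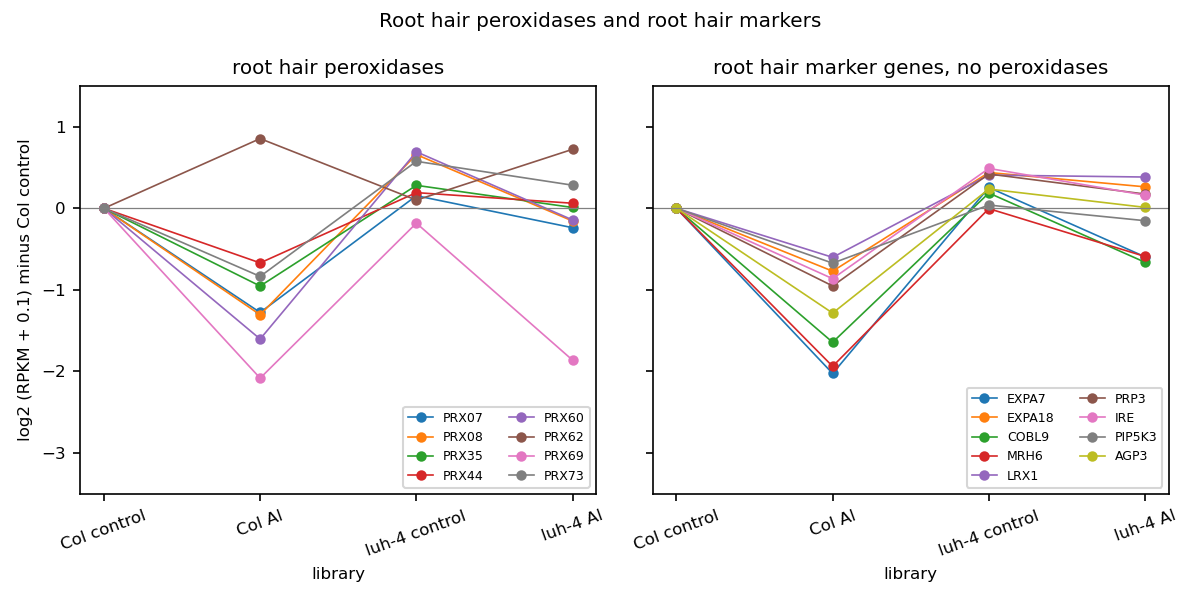
Log2 of RPKM + 0.1 in each of the 4 libraries, minus the value in Col control, for the 8 root hair peroxidases (left) and for the 9 root hair markers that are not peroxidases (right), with a line per gene. Col Al is the lowest library for all 9 markers and for all peroxidases shown but PRX62, which runs the other way and is highest in Col Al.

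In the role lists other than root hair, PRX25 alone passed the size rule between the genotypes. Over all measured loci 1.55% were higher and 0.855% lower without Al, and 1.22% and 0.946% with Al. With so few genes per list, these counts do not set the lists apart from all loci. The immune and stress list had a median log2 ratio between luh-4 and Col of 0.28 without Al and -0.0006 with Al, with 0 genes past the size rule. The endodermal list had medians of 0.06 and 0.05, and the lignified tissue list -0.21 and -0.36. In the latter PRX25 was lower without Al and no other gene passed. With Al 5 of its 6 ratios lay below 0 and 1 above. The ratios of the xylem markers lay below 0 for 5 of 5 without Al and for 4 of 5 with Al. Their medians were -0.23 and -0.13, beside 0.02 and -0.02 for all measured loci. Among the 6 proteins that are not class III enzymes 0 passed the rule in any comparison.

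Genes that supply or use the same oxidants were also followed. RBOH genes encode the NADPH oxidases that make superoxide outside the cell, superoxide dismutases turn it into hydrogen peroxide, and laccases oxidise lignin precursors with oxygen in place of hydrogen peroxide. Among 8 listed RBOH genes, 5 superoxide dismutases and 16 measured laccases, 0 passed the size rule in any of the 5 comparisons. Their median log2 ratio with Al in Col was -0.12, 0.01 and -0.08, in this order, and the most extreme value in Col was 0.57, in a laccase. UPB1 and MYB36, which controls endodermal differentiation, passed the rule in no comparison.

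Several peroxidases lie side by side in the genome as near copies, and the files do not say how reads that fit more than 1 locus were counted. There were 8 neighbouring pairs among the members, with 15 genes. PRX37 and PRX38 shared 93.8% of their aligned coding bases, PRX50 and PRX51 92.4%, PRX14 and AT2G18150 91.7%, and PRX22 and PRX23 90.6%. For these pairs, and for PRX33 and PRX34, the split of reads between the copies is uncertain. Even so, whole 50-base words were shared with another class III gene in few members: 61 of 71 shared none, while PRX37 shared 10.6%, PRX34 9.77% and PRX33 9.74%, the last 2 with each other. AT1G05240 and AT1G05250, which were not listed, are identical over all such words.

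Neighbours with more diverged sequences could be compared more safely. PRX04 and PRX05, 72.3% identical, had log2 ratios with Al in Col of 1.18 and 1.56. PRX69, PRX70 and PRX71 lie in a row on chromosome 5. PRX69 and PRX70 are 68.7% identical and PRX70 and PRX71 62.1%. All 3 fell with Al in both genotypes, although their levels in Col control ranged from 4.93 RPKM for PRX70 to 1156 for PRX69. PRX53 and PRX54, 80.8% identical, had log2 ratios of -0.41 and 1.0 with Al in luh-4, where PRX54 lay just below the threshold before rounding and did not pass.

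The 250 bases before the start of transcription were searched on both strands for 3 motifs in RefSeq, for 66 members and for 20633 loci in all. The W-box core TTGAC, which WRKY factors bind, was in 31 of 66 members (47%) and in 45.4% of all promoters. Of the 4 members that rose with Al in Col it was in PRX05 and PRX49. The G-box CACGTG was in 4.55% of members and 7.11% of all. The root hair element, the motif through which RSL4 and its relatives act on hair genes, was in 152 promoters of all loci (0.737%) and in 3 of 66 members (4.55%), PRX20, PRX27 and PRX60. Of these PRX60 is on the root hair list and fell in Col, PRX27 is not on it and fell in Col, and PRX20 had a log2 ratio of -0.03. A match is a description of the letters and not a site shown to be bound. The promoters of PRX60 and PRX27 are shown because they hold the root hair element, and that of PRX49 because the gene rose in both genotypes. Capitals mark the root hair element in the first 2, as printed in PRX60 and on the other strand in PRX27. In the last they mark the W-box core, here read on the other strand as GTCAA. They lie in TAIR10.1 at chr5:7426060-7426309 on the plus strand, chr3:68666-68915 on the minus strand and chr4:17206034-17206283 on the minus strand.
PRX60: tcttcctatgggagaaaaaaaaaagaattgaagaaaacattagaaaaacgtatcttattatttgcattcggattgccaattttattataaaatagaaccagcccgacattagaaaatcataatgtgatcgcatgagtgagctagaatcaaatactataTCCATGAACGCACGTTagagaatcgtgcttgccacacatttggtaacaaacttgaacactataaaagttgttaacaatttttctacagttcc
PRX27: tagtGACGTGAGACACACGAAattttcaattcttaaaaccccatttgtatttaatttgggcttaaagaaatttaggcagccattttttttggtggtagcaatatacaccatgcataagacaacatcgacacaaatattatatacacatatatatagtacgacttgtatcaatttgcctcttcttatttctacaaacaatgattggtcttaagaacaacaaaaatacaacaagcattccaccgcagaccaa
PRX49: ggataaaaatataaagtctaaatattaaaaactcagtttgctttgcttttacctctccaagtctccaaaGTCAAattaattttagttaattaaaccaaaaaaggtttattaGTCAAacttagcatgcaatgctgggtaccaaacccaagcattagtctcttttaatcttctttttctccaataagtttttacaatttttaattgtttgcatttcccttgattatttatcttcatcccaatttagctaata

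A fit over all 4 libraries had 1 term for genotype and 1 for Al (edgeR quasi-likelihood test, Benjamini-Hochberg adjustment over 17289 loci). Each term is an effect averaged over both arms, so a call does not show that the arms were alike. PRX07 was called lower with Al, with log2 ratios of -1.28 in Col and -0.39 in luh-4. The spread in this fit is the departure from additivity on 1 residual degree of freedom and not a spread between replicates. The fit therefore serves as a second description. Among 64 peroxidases in the fit, 15 were higher and 18 lower with Al at an adjusted p under 0.05, beside 5.58% and 6.69% of all loci. For genotype 6 were higher in luh-4 and 1 was lower, beside 0.353% and 0.602%. The lower one was PRX25 (log2 -0.99, adjusted p = 0.000599 by edgeR). The higher ones were PRX35, PRX37, PRX59, PRX60, PRX71 and PRX73, with log2 values from 0.37 for PRX37 to 1.01 for PRX60. Of them PRX60 and PRX73 were also past the size rule with Al. The fit sets no size threshold, and small changes are called more readily at high read counts. PRX03, for example, was called higher with Al at a log2 value of 0.30. Since 27 of the 71 members averaged 100 RPKM or more, the counts from the fit depend on level and show no trait of the family.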

How the data were processed

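Per the labels' protocols, poly(A) RNA was fragmented, copied with random primers and sequenced on an Illumina instrument, with 1 library per group. The submitters' processing notes name the build TAIR10. No aligner, counter or strand setting is given in these sources. The authors deposited, per the file headers, a read count per transcript, its coding length, an RPKM value and the percent coverage of that length. RPKM equalled reads scaled by length and library total (relative difference at most 5e-15). Transcripts without reads are not listed and were taken as 0.

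Reads and RPKM were summed per locus. Log2 ratios were taken on RPKM + 0.1, which understates changes of low genes, with Clopper-Pearson conditional intervals on the reads (95%). Differences between Al responses had normal intervals on log reads + 0.5. A locus was measured at 1 RPKM or more in a library compared. No p-value was computed for a comparison of 1 library with 1 library. The additive fit used edgeR 4.0.16 in R 4.3.3 with TMM factors, and the calculations were tested on simulated data. Numbers of the form PRX came from the deposited text or the RefSeq gene table for 56 class III genes; 9 without one there are called by locus. For 66 of 71 members a RefSeq transcript had the deposited coding length, as for 95.8% of listed loci. Protein sequences were not used here.

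Named genes were the members past the size rule, the 10 most abundant, and the members of the role lists. Members and lists were chosen with earlier results of these data known. Alternatives covered the pseudocount, the RPKM minimum, scaling, the interval, transcripts, coverage and the additive fit, and 2 more were added after seeing the data.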

Additional observations from a re-analysis of the deposited data

Results flagged for a closer look

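AT3G28200, a class III peroxidase of middling level, stood out because its Al responses had opposite signs in the 2 genotypes. It had 167 RPKM in Col control, 151 in Col Al, 141 in luh-4 control and 168 in luh-4 Al. The log2 ratio of Al over control was -0.14 in Col (interval -0.23 to -0.05) and 0.25 in luh-4 (interval 0.16 to 0.35). The difference, luh-4 minus Col, was 0.40 on the log2 scale (interval 0.27 to 0.52, counting error only). With 1 library per group this difference was not tested against a spread between samples, and both ratios are under the size rule.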

How the results depend on the processing

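No named value reversed its sign as a call under any alternative, and of the values for named genes 1815 kept their side of the size rule, 7 calls fell below it, 5 more were lost because the gene was no longer measured at the higher RPKM or coverage minimum, and 1 value newly passed it. The single peroxidase with a lower Al response in luh-4, PRX52, was lost, leaving 0, with a pseudocount of 1, an RPKM minimum of 5, TMM scaling, RLE scaling and centring on the median locus. Its difference was -0.80 with a pseudocount of 1 and -0.96 under each scaling. Without the counting interval 2 peroxidases were lower in luh-4 without Al, PRX43 being added, and 1 had a higher Al response in luh-4, PRX33. The additive edgeR fit called 15 peroxidases higher and 18 lower with Al, against 3 and 7 past the size rule in both genotypes, and 6 higher and 1 lower in luh-4, against 0 and 0 past it with and without Al. These are different criteria, since the fit has no size threshold and averages over both arms. A pseudocount of 1 also lost PRX33 and PRX70 in Col and PRX08 between genotypes with Al. PRX33 and PRX70 left the counts in Col at an RPKM minimum of 5, as did PRX33 in luh-4. PRX54 was added in luh-4 with a pseudocount of 0.01 and under each scaling. AT2G37130 was lost where 50% coverage was required.

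Because shoot and jasmonate genes were high in luh-4 control, luh-4 Al was also compared with Col control, a choice made after seeing the data. Then 3 peroxidases were higher and 8 lower. Beside the Al response of luh-4, PRX65 and AT2G37130 joined and PRX70 left the genes that were lower. The 3 higher include PRX33, which was measured only through its Al library. This comparison changes genotype and Al together. No share over all loci is given for it, so its counts show no trait of the family. Limiting the rule to class III genes removed none of the calls. No paired analysis was possible because each group is 1 library. For the same reason leaving out a library was not possible, and no difference here is measured against biological variation.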
